A study of Mus musculus with 72 samples.

Results

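Immediate early genes are the genes a cell transcribes first after a stimulus, before any new protein is made, and 9 of them were followed here through the mouse heart: Fos, Fosb, Jun, Junb, Egr1, Nr4a1, Atf3, Ier2 and Dusp1. They were taken by their Entrez identifiers from a table of 24237 genes, and all 9 were found in it. The files hold raw read counts for 72 libraries of RNA from adult mouse hearts. Values are given as CPM, the standard unit of counts scaled by the total count of the library.

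The study asked whether disturbing the aryl hydrocarbon receptor (AHR) before birth leaves a mark on the adult heart. The 4 groups of mice were the following. Naïve mice were Ahr+/+ C57BL/6J whose dams had been given the corn oil vehicle alone. Ahr-/- mice, bred from Ahr-/- parents on the C57BL/6J background, carry the null allele in every tissue, and their dams were given nothing, so that genotype and gavage of the dam cannot be told apart in that comparison. Low-dose and high-dose mice were Ahr+/+ C57BL/6J whose dams had received 0.1 or 1 µg/kg TCDD, a dioxin that binds AHR, by gavage on 3 days of gestation, so that the hearts sequenced were exposed through the dam. The sources give the age at which hearts were taken as 9 or 10 months. The treatment entry of the labels names TCDD for all 72 libraries, naïve and Ahr-/- included. Hearts were divided into ventricles and the left and right atria, and each of the 24 combinations of group, chamber and labelled sex holds 3 libraries. The 3 chambers come from the same hearts, but the labels do not say which libraries share one. The labels name the cell type as cardiomyocytes, although the pieces were whole tissue, and markers of fibroblasts, endothelium and macrophages were present in every library.

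Fos and Fosb pair with Jun and Junb to form AP-1, a transcription factor that binds DNA as a dimer. Egr1 is a zinc finger transcription factor, Nr4a1 an orphan nuclear receptor, and Atf3 a stress-induced factor of the ATF/CREB family. Ier2 is a small nuclear protein, and Dusp1 is a phosphatase that switches off the MAP kinases that turn the others on. In the heart these genes answer stretch, adrenergic drive and ischemia, and their transcripts live for minutes rather than hours.

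Much of the rapid induction of this class runs through CREB and ATF factors at the cyclic AMP response element, TGACGTCA, and through serum response factor at the CArG box. A promoter window of 250 bases before a listed transcript start was found in RefSeq (GRCm38.p6, the build the authors named as mm10) for 7 of the 9 members. For Fosb and Nr4a1 the listed start is not the outer end of the annotated gene but lies 73 and 12944 bases inside it. The short core TGACG, searched on both strands and lying also inside the full element, was present in 6 of these 7, in Fos, Fosb, Junb, Nr4a1, Atf3 and Dusp1 but not in Jun, and in 17.8% of 32851 mouse promoters of the same length. The full element was found in 1 of 7, Dusp1, against 1.55% of all promoters. TATAAA was found in 1 of 7, Fos, against 12.4% of all, and an EGR1-type site, GCGNGGGCG, in 2 of 7, Fosb and Nr4a1, against 4.7%. No CArG box (1.47% of all) and no AP-1 site TGANTCA (6.75%) lay within these windows. The last 150 bases before the listed start are shown for 4 members that hold different ones of these elements. Fos is at chr12:85473740-85473889 on the plus strand, Fosb at chr7:19310046-19310195 on the minus strand, Nr4a1 at chr15:101266696-101266845 on the plus strand and Dusp1 at chr17:26508473-26508622 on the minus strand. Capitals mark TGACG or its reverse complement, the full element in Dusp1, and the TATA box in Fos. Such matches are letters in a window and were not tested as sites.
Fos: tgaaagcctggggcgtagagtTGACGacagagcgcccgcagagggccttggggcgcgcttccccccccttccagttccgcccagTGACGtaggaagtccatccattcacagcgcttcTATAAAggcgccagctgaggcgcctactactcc
Fosb: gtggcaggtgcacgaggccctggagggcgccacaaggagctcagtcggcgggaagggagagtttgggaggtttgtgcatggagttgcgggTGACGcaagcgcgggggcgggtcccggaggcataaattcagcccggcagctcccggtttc
Nr4a1: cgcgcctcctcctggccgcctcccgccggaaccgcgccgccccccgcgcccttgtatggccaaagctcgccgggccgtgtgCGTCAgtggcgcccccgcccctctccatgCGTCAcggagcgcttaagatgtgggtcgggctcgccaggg
Dusp1: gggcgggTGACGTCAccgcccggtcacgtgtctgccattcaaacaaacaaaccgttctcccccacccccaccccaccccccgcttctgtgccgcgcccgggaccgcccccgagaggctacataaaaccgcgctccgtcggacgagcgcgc

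Library totals ran from 11873417 to 28789382 counts, with a median of 19231739. At these depths a count of 0 would allow up to 0.253 CPM in the smallest library and 0.104 in the largest, counting error only, and the smallest count of any member was 3, for Fosb. Ahr was lower in Ahr-/- than in naïve libraries without overlap in each chamber, at 4.10 to 9.23 against 11.4 to 19.3 CPM in the right atrium, 3.41 to 5.97 against 8.59 to 21.3 in the left atrium and 2.00 to 7.29 against 14.0 to 30.8 in ventricles. However, 16 libraries went against their labels. In 8 of them the sex-linked genes were those of the other sex: 4 labelled female right atrium held Xist at 0.105 to 0.830 CPM, and 4 labelled male ventricle held Xist at 177 to 329 CPM together with the atrial light chain Myl4 at 704 to 3533 CPM. A further 8 labelled atrium held Myl4 under 100 CPM. All 8 libraries of the first kind, and 12 of the 16, are among the 24 numbered 49 to 72; the part of this numbering was not tested. No library was moved to another group. In the main test, calls of the members are given with all libraries. They are also given without these 16 where any of the 16 enters the fit and could be left out. DESeq2, an alternative test, was run on all libraries only.

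Per kilobase of exon, Jun was the most abundant member, at a median of 26.8 CPM per kb over the 72 libraries, followed by Dusp1 (16.8), Ier2 (13.9), Junb (9.26), Nr4a1 (6.74), Egr1 (3.67), Atf3 (2.93), Fos (2.06) and Fosb (0.179). The 3 chambers shared this order. The study's methods, however, say that reads on coding regions were counted. Scaled by coding length instead, the medians of Jun, Fos and Fosb were 85.2, 4.24 and 1.1 CPM per kb. The order over the 72 libraries then changed only in that Atf3 (11.6) stood above Egr1 (10.3). Neighbours in the order overlapped widely across libraries: in ventricles Dusp1 ranged from 10.8 to 28.3 CPM per kb and Ier2 from 5.04 to 19.7. Jun and Fos, partners in AP-1, thus stood at the top and next to the bottom of the levels per length.

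The members differed most in how far they swung. Fos ranged over 338-fold, from 0.465 CPM in a ventricle library of an Ahr-/- mouse labelled female to 157 CPM in library 30, a left atrium of a low-dose mouse labelled male. The next highest Fos value was 41.5 CPM, in library 9. Nr4a1 ranged from 4.79 to 247 CPM, Fosb from 0.182 to 17.5, Atf3 from 1.97 to 72.8 and Egr1 from 5.63 to 143. The lowest Fos and Fosb values rest on 10 and 4 counts, so that counting error is large there. Jun and Dusp1 were the steadiest, with ranges of 36.7 to 200 CPM and 33.5 to 132 CPM, that is 5.44-fold and 3.94-fold. Library 30 held the highest value of 8 members, all except Nr4a1, whose highest value lay in library 25, a left atrium of a high-dose mouse labelled male.

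**Figure D1:**
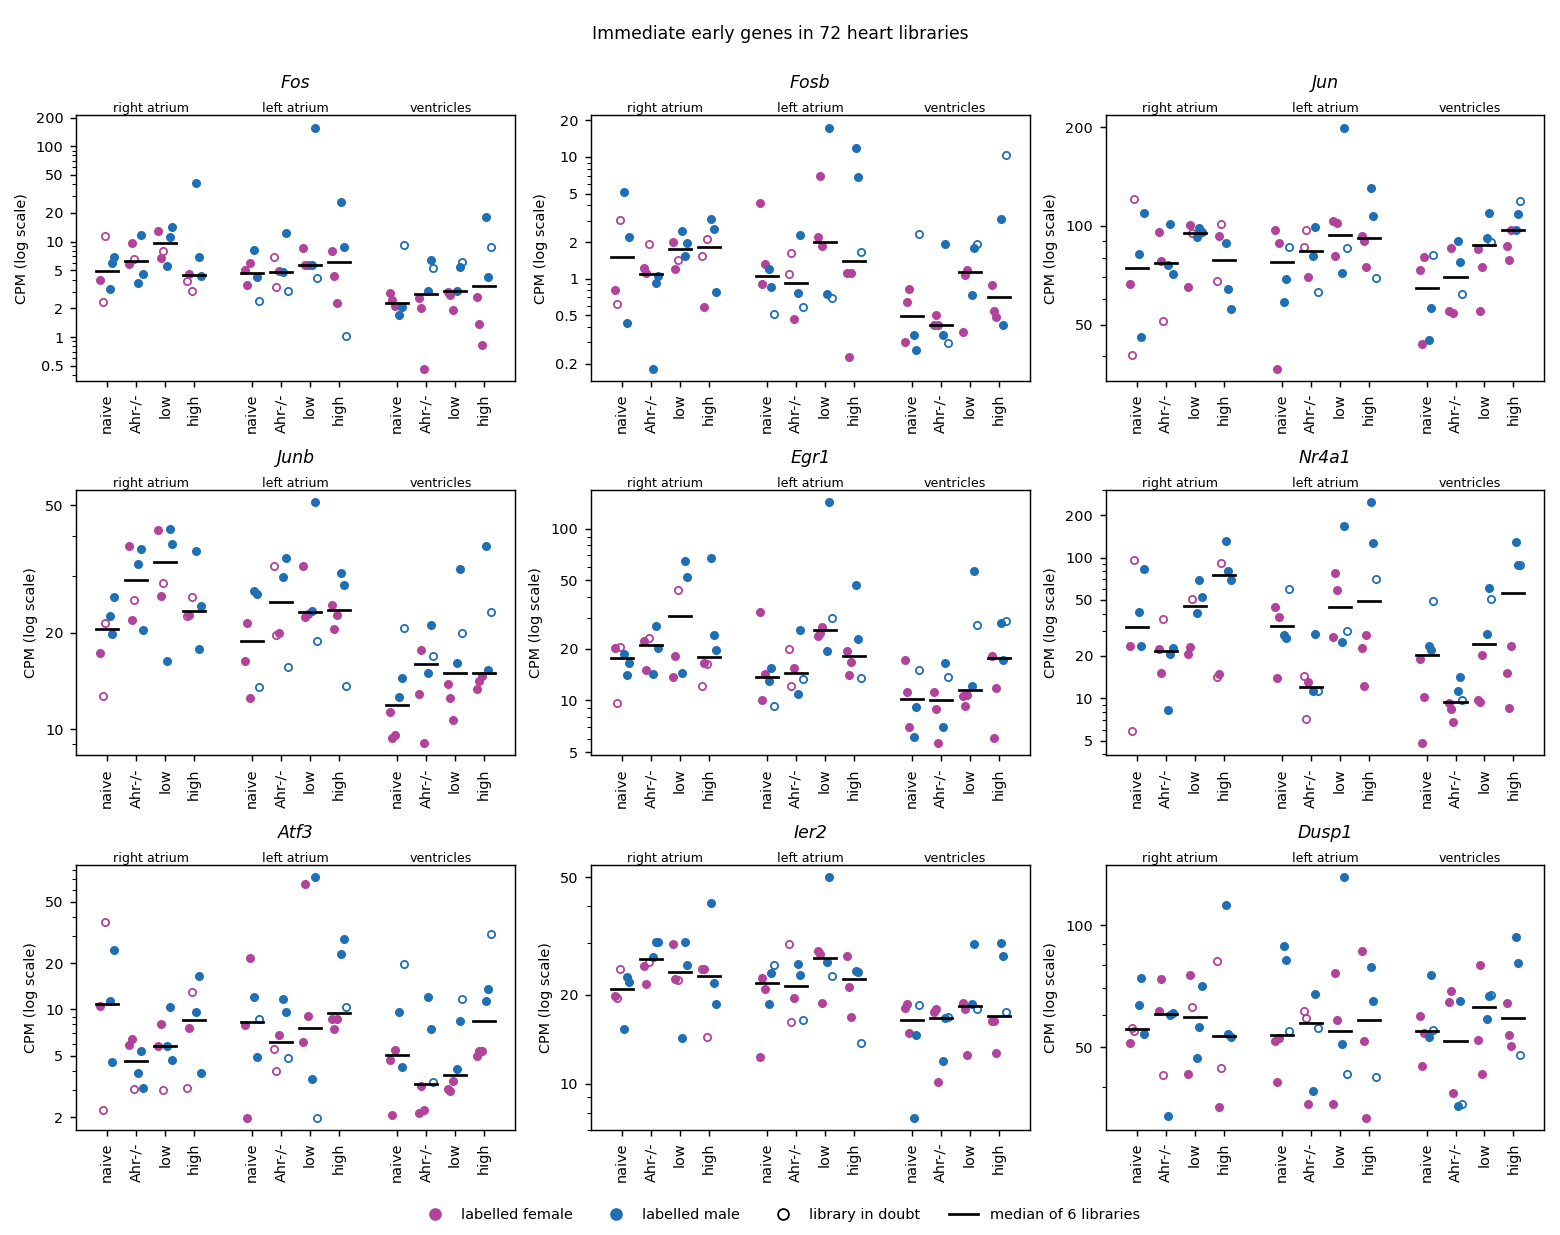
CPM of each member on a log axis in all 72 libraries, by chamber and group; points are libraries coloured by labelled sex, open points are the 16 libraries whose sex-linked genes or Myl4 go against the label, and black lines are medians of 6 libraries. Fos in library 30 stands at 157 CPM above all other points of its panel, and the ventricle columns of Fos and Junb lie lower than the atrial ones.

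Chambers were compared first, over all groups and both labelled sexes. Fos and Junb were higher in both atria than in the ventricles, and no member differed between the atria. Median Fos was 6.27 CPM in the right atrium (2.31 to 41.5 over 24 libraries), 5.37 in the left atrium (1.03 to 157) and 2.82 in the ventricles (0.465 to 18.0). Median Junb was 24.8 CPM (12.7 to 42.1), 22.7 (12.5 to 51.1) and 14.5 (9.02 to 37.4). For both genes the atrial libraries lay mostly above the ventricular median, with ranges that overlap.

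In right atrium over ventricles, 5 of 9 members passed an adjusted p of 0.05 in edgeR's quasi-likelihood test, all higher, while 29.9% of the 16688 genes tested passed in either direction and 16.3% passed as higher. The log2 fold change of Fos was 0.93 ± 0.29 (SE, adjusted p = 0.0123), and that of Junb was 0.53 ± 0.11 (adjusted p = 0.000444). It was 0.54 ± 0.19 for Egr1 (0.0266), 0.74 ± 0.25 for Nr4a1 (0.0233) and 0.28 ± 0.10 for Ier2 (0.0329). The members' median log2 fold change was 0.49 against 0.03 for all genes tested. Egr1 had medians of 19.1 CPM in the right atrium (9.63 to 67.1) and 11.5 in the ventricles (5.63 to 57.0), and Nr4a1 of 29.9 (5.90 to 130) and 17.1 (4.79 to 129). Ier2 was at 23.7 (14.3 to 41.0) and 17.5 (7.67 to 30.0). The ranges of all 5 overlap between the chambers. Jun, Atf3, Fosb and Dusp1 did not pass.

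Without the 16 libraries, Fos (0.97, adjusted p = 0.0137) and Junb (0.44, 0.00674) still passed, with 47.8% of genes called. Egr1 (0.43, adjusted p = 0.146), Nr4a1 (0.24, 0.466) and Ier2 (0.19, 0.186) did not, and Dusp1 passed as lower in the right atrium (-0.40, 0.0204). Leaving out single libraries, Junb and Fos passed in 72 of 72 refits, Egr1 in 70 (lost without library 9 or 68), Nr4a1 in 70 (lost without 50 or 62) and Ier2 in 66 (lost without 9, 14, 33, 45, 50 or 60).

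In left atrium over ventricles, 3 of 9 members passed, all higher, against 19.4% of genes in either direction and 12% as higher. These were Fos (1.05 ± 0.29, adjusted p = 0.010), Junb (0.43 ± 0.11, 0.00653) and Atf3 (0.80 ± 0.30, 0.0467). Atf3 had medians of 8.66 CPM in the left atrium (1.97 to 72.8) and 5.17 in the ventricles (2.07 to 31.0). Without library 30, Fos was at 0.65 (adjusted p = 0.0626) and Atf3 at 0.43 (0.253), and Atf3 passed in 39 of 72 refits with 1 library left out. Junb passed in 72 of 72. Without the 16 libraries, 6 members passed with 44.8% of genes called: Fos (1.36, adjusted p = 0.00074), Fosb (1.19, 0.00686), Junb (0.44, 0.00608), Egr1 (0.57, 0.0489), Nr4a1 (0.65, 0.0270) and Atf3 (1.06, 0.00650). Between right and left atrium 0 of 9 members and 1 of 16688 genes (0.00599%) passed, and DESeq2 also called 0 members. The checks of the labels do not tell the atria apart. Between the atria 1 member, Atf3, had an unadjusted p under 0.05, as did 3.2% of all genes. In the 18 naïve libraries alone, 0 members passed in any pair of chambers, and 1 gene in all passed over the 3 pairs. Right atrium over ventricles was then 0.71 for Fos (adjusted p = 0.382) and 0.54 for Junb (0.133). Libraries 4, 50, 51 and 53, which go against their labels, are among the 18.

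Markers of other cell types moved with the chamber. The summed CPM of fibroblast markers had medians of 2263 in the right atrium, 2056 in the left atrium and 1128 in ventricles, and that of macrophage markers 157, 145 and 87.7. Their part in the chamber differences was not tested. In pieces of tissue, fewer cells of a type and less RNA per cell cannot be told apart.

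**Figure D2:**
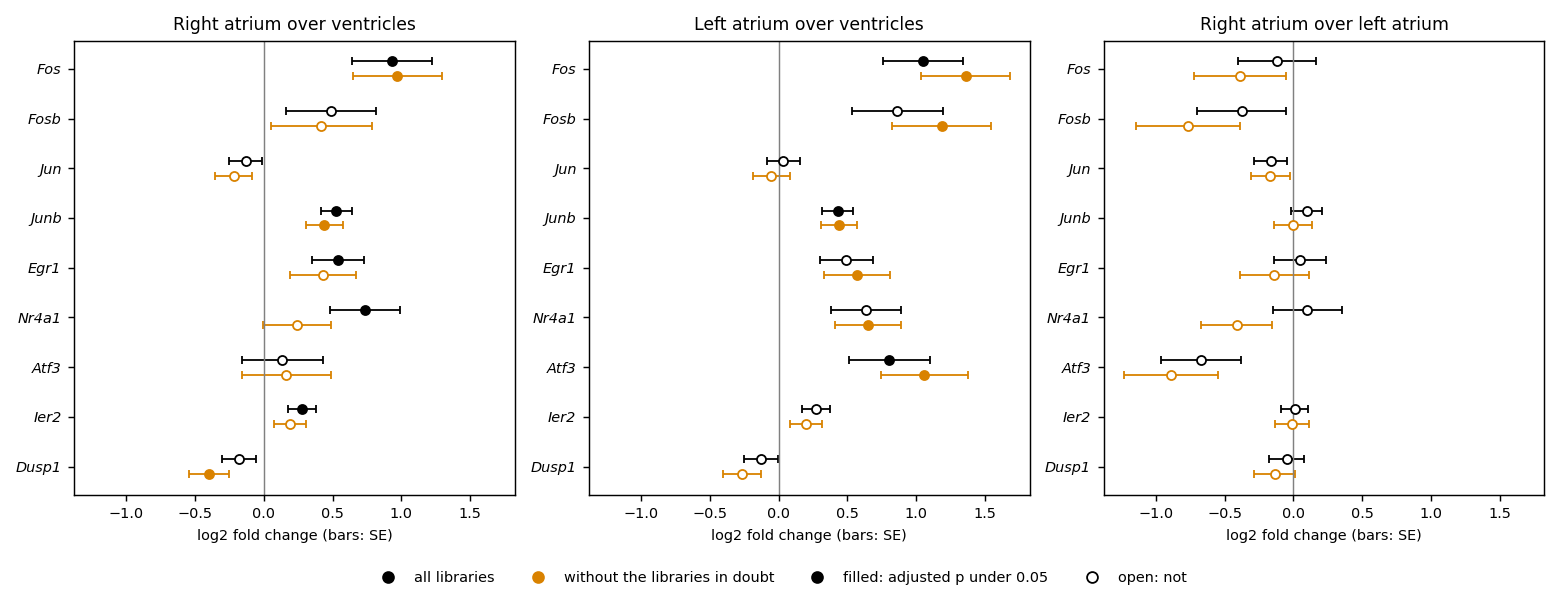
Log2 fold changes with their standard errors for the 9 members between chambers; black is all 72 libraries, orange is without the 16 that go against their labels, and filled points have an adjusted p under 0.05. Fos and Junb are filled in both colours in the first and second panels, and no point is filled in the third.

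Genes around the members were counted in the same fits. Of all genes tested, 29.9% had passed in right atrium over ventricles and 19.4% in left atrium over ventricles. Of 32 further immediate early and delayed early genes, 8 were higher and 3 lower in the right atrium than in the ventricles, led by Ccn2, a matrix-associated growth factor (1.54, adjusted p = 0.000169), Socs3, an inhibitor of cytokine signalling (0.65, 0.00200), Cebpd (0.63, 0.00277) and Maff (0.47, 0.00403). In the left atrium 7 were higher and 0 lower, among them Ccn2 (1.39, 0.00163) and Egr3, the close relative of Egr1 (0.93, 0.0169). Of 10 feedback inhibitors, 5 were higher and 1 lower in the right atrium, and Nab2, the corepressor of EGR factors, was higher in both atria (0.58, 4.87e-05 and 0.44, 0.00307). Of 16 upstream kinases and factors, 1 was higher and 4 lower in the right atrium, with Atf1 at -0.34 (0.00680). Of 8 heat shock genes, 3 were higher and 1 lower in the right atrium, and only Hmox1 (0.61, 0.00265) passed in the left atrium. Without the 16 libraries, where 47.8% and 44.8% of genes were called, 8 of the 32 were higher and 4 lower in the right atrium, and 10 higher and 4 lower in the left. Of the feedback inhibitors 7 were then higher and 1 lower in either atrium, of the upstream genes 7 lower in either and 1 higher in the right, and of the heat shock genes 4 higher and 1 lower in either. The genes named here passed in that setting too, with Maff at 0.42 (0.0315) in the right atrium.

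Each exposed or knockout group was then compared with naïve mice. Within one chamber and labelled sex, 3 libraries against 3, no gene at all passed in 16 of 18 comparisons. The exceptions were Ahr-/- in ventricles labelled female, with 0.0216% of genes called and 0 members, and high-dose TCDD in ventricles labelled female, where 23.7% of 14006 genes passed. There Junb was the only member called. Its 3 naïve libraries held 11.3, 9.41 and 9.59 CPM and its 3 high-dose libraries 13.3, 14.2 and 14.6 CPM, so that the groups did not overlap. The share of all genes without overlap was not counted. The log2 fold change of Junb was 0.66 ± 0.19 (adjusted p = 0.0217). It no longer passed without library 35 (adjusted p = 0.0726), 36 (0.0981) or 66 (0.0880). In the same comparison several cell type markers passed as higher, among them Tnni3 (1.23) and Actc1 (1.14) of cardiomyocytes, Tagln (1.01) and Myh11 (0.87) of smooth muscle, Col1a2 (0.74) of fibroblasts and Tie1 (0.70) of endothelium, while Ryr2 (-0.45) and Dcn (-0.47) passed as lower; their part in the result was not tested.

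Averaged over labelled sex, in a fit of the 24 libraries of a chamber, the ventricles of high-dose mice had higher Jun, Junb and Nr4a1 than those of naïve mice. Here 3 of 9 members passed as higher, against 12.7% of 15263 genes in either direction and 5.09% as higher, and all 9 members had a positive log2 fold change, with a median of 0.68 against 0.02 for all genes. Jun had a lowest, median and highest value of 43.8, 64.8 and 81.3 CPM in naïve ventricles and of 78.8, 97.2 and 119 in high-dose ventricles. Only 2 naïve libraries, at 80.4 and 81.3 CPM, reached into the high-dose range. Its log2 fold change was 0.71 ± 0.20 (adjusted p = 0.0237). Junb stood at 9.41, 11.9 and 20.7 CPM against 13.3, 14.9 and 37.4 (0.68 ± 0.22, 0.0428), and Nr4a1 at 4.79, 20.5 and 49.1 CPM against 8.60, 56.3 and 129 (1.23 ± 0.34, 0.0243). Both genes overlapped between the groups, with the high values in libraries labelled male.

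These 3 calls held without the libraries that go against their labels, where Ier2 passed as well: Jun 0.84 (adjusted p = 0.00378), Junb 0.86 (0.0104), Nr4a1 1.53 (0.00921) and Ier2 0.71 (0.00760), with 27.9% of genes called. They were less stable to single libraries. Jun passed in 20 of 24 refits with 1 library left out (lost without 33, 35, 36 or 66, adjusted p up to 0.0771), Nr4a1 in 19 (lost without 33, 34, 36, 41 or 66, up to 0.0887) and Junb in 14 (up to 0.171, without 41). Junb also missed the threshold with no low-count filter (0.67, adjusted p = 0.0553) and with library-size scaling (0.57, 0.0973). Summed cardiomyocyte markers ranged from 28180 to 50110 CPM in naïve and from 40570 to 76670 in high-dose ventricles, where 2 of these 5 markers, Actc1 (1.03) and Tnni3 (0.85), passed as higher and Ryr2 (-0.65) as lower. Summed smooth muscle markers ranged from 99.0 to 435 CPM in naïve and from 219 to 3868 CPM in high-dose ventricles, and summed red blood cell markers from 2338 to 5346 and from 1682 to 11720; the part of these in the result was not tested.

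At the low dose, 7.67% of genes passed in ventricles and 0 members, the smallest adjusted p being 0.0986, for Jun (0.52 ± 0.19). There, 4 members had an unadjusted p under 0.05, as did 25.2% of all genes tested. DESeq2 called 1 member, Egr1 (0.88, adjusted p = 0.0489). Jun in low-dose ventricles was at 54.9, 87.2 and 109 CPM (lowest, median, highest), between the naïve and high-dose medians. Without the libraries that go against their labels, Jun (0.65, adjusted p = 0.0235) and Ier2 (0.61, 0.0232) passed with 21.8% of genes called. High and low dose were compared directly in each chamber: 0 members and 0 genes passed in edgeR, and DESeq2 called 0 members. In right atrium, left atrium and ventricles 0, 2 and 1 members had an unadjusted p under 0.05, against 5.09%, 2.19% and 2.61% of genes. The comparisons with naïve mice share their naïve libraries.

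**Figure D3:**
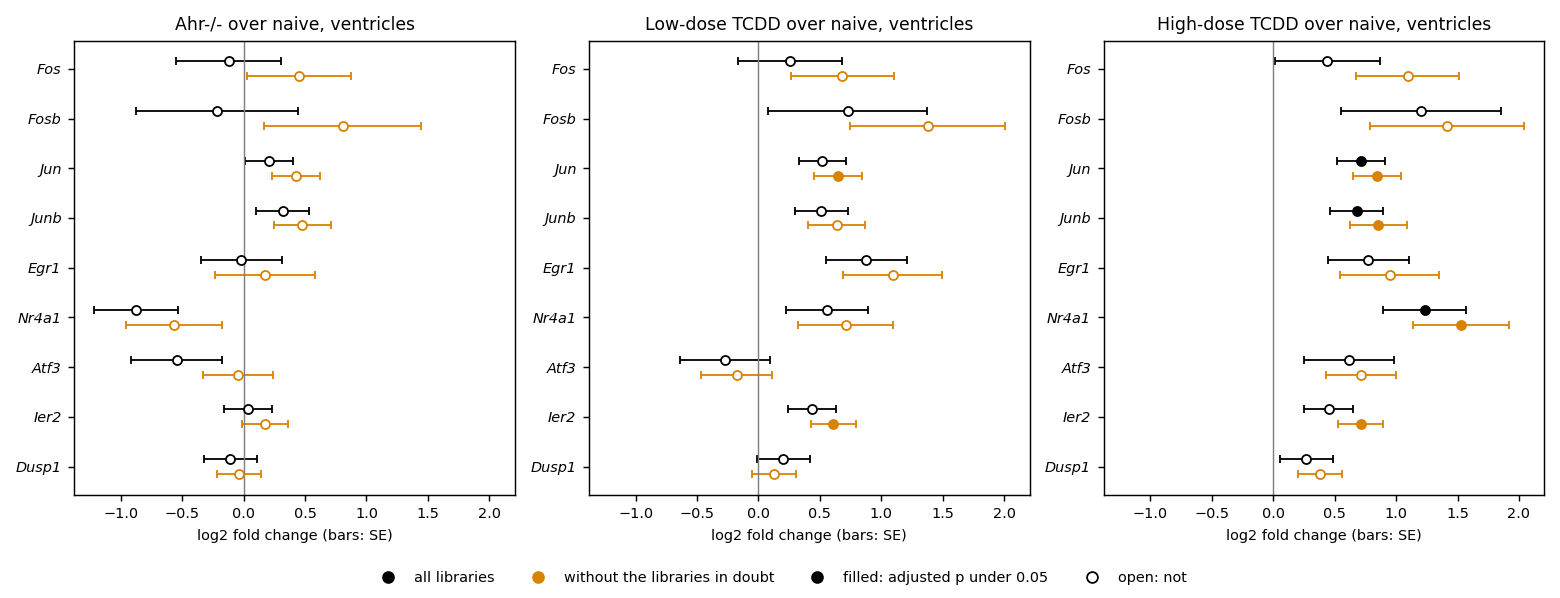
Log2 fold changes with their standard errors over naïve mice in ventricles, averaged over labelled sex, for Ahr-/-, low-dose and high-dose mice; black is all 24 libraries, orange is without those that go against their labels, and filled points have an adjusted p under 0.05. In the high-dose panel Jun, Junb and Nr4a1 are filled in both colours and all 9 points lie right of 0; in the Ahr-/- panel none is filled.

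Ahr-/- mice showed no call among the members. The percentages of genes called were 0.0125% in the right atrium, 0.0187% in the left atrium and 0.0524% in ventricles, and DESeq2 called 0 members. In the same order, 2, 1 and 1 members had an unadjusted p under 0.05, against 8.47%, 13% and 11.4% of all genes. Nr4a1 had negative log2 fold changes in all 3 chambers, of -1.23 ± 0.62 (adjusted p = 0.617), -1.36 ± 0.47 (0.290) and -0.88 ± 0.34 (0.373). In ventricles it was at 6.74 to 14.2 CPM in the 6 Ahr-/- libraries and at 4.79 to 49.1 in the 6 naïve ones, so that the knockout libraries lay inside the naïve range. Among male-labelled ventricles alone it was at 9.74 to 14.2 CPM in Ahr-/- and 21.9 to 49.1 in naïve mice, without overlap (-1.33 ± 0.35, adjusted p = 0.827 in edgeR, 0 genes called). The values of 9.74 and 49.1 come from libraries 59 and 53, whose sex-linked genes go against the label. Without them Nr4a1 was at 11.4 and 14.2 CPM in Ahr-/- and 23.7 and 21.9 in naïve mice. The share of all genes without overlap was not counted. Atf3 in the right atrium was at 3.06 to 6.45 CPM in Ahr-/- and 2.22 to 36.9 in naïve mice (-1.81 ± 0.55, 0.355). The highest naïve value is that of library 50, whose sex-linked genes go against the label; the log2 fold change was -1.28 (adjusted p = 0.410) without the 16 libraries, -0.45 (0.719) in libraries 1 to 48, and -2.07 to -1.04 with single libraries left out.

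In the atria of exposed mice no member passed either. In left atrium of low-dose mice all 9 members had positive log2 fold changes, with a median of 0.86 against 0.03 for all genes. An unadjusted p under 0.05 was found for 6 members and for 15.5% of all genes. No gene passed, and the smallest member value was for Egr1 (1.46 ± 0.38, adjusted p = 0.160), which DESeq2 called (0.0200). Of 7 alternative fits this was the 1 that passed. The fit without the 16 libraries did not pass, and adjusted p ran up to 0.293. The 6 low-dose values of Egr1 were 19.4, 23.6, 24.7, 26.8, 30.3 and 143 CPM, the last from library 30, against 9.33 to 32.7 in naïve mice. The values of 30.3 and 9.33 come from libraries 69 and 51, which held Myl4 at 3.2 and 3.9 CPM, against their label. Fos was at 4.19 to 8.48 CPM in 5 of the libraries and at 157 in library 30, against 2.41 to 8.09 in naïve mice. The values of 4.19 and 2.41 are again those of libraries 69 and 51. For the high dose, the share of genes called was 0.0939% in the right atrium and 0.0312% in the left atrium. In either, 0 members had an unadjusted p under 0.05, against 7.69% and 16.7% of all genes. For the low dose in the right atrium 0 genes passed, with 3 members and 10% of all genes at an unadjusted p under 0.05. DESeq2 called 0 members in these 3 comparisons.

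The highest Nr4a1 value of each chamber lay in a high-dose library labelled male, number 9 in the right atrium, 25 in the left atrium and 41 in ventricles, and the labels do not say whether these came from one heart. These 3 libraries stand at the same place in the numbering of their chambers. High-dose mice labelled male held 130, 79.7 and 69.4 CPM in the right atrium, 247, 126 and 70.2 in the left atrium and 129, 88.9 and 89.0 in ventricles. Naïve mice labelled male held 41.2, 23.4 and 82.7 CPM in the right atrium, 28.0, 26.7 and 59.8 in the left atrium and 23.7, 21.9 and 49.1 in ventricles. The groups thus overlapped in the right atrium but not in the other chambers. The left atrium values of 70.2 and 59.8 come from libraries 63 and 51, which held Myl4 at 2.21 and 3.90 CPM, against their label. Without them, 247 and 126 CPM in high-dose mice stood against 28.0 and 26.7 in naïve mice. High-dose mice labelled female held 15.2, 8.60 and 23.7 CPM in the ventricles, within or near the naïve values of 19.0, 4.79 and 10.2. In male-labelled ventricles the log2 fold change was 1.75 ± 0.37, with an unadjusted p of 0.00179 in edgeR and an adjusted p of 0.525, and 0 of 14162 genes passed. Jun (0.86 ± 0.25) and Egr1 (1.32 ± 0.36) also did not overlap there. The share of all genes without overlap was not counted in either chamber. In male-labelled ventricles 4 members had an unadjusted p under 0.05 in edgeR, as did 9.19% of all genes. DESeq2 called Nr4a1 in both male-labelled left atrium (1.87, adjusted p = 0.0263) and ventricles (1.76, 0.0363).

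One of the 3 libraries on each side of the male-labelled ventricle comparison goes against its label. With these left out, 2 against 2, the naïve and high-dose groups differed in 15.9% of genes and in 5 of 8 members tested: Nr4a1 (2.30, adjusted p = 0.00557), Jun (1.06, 0.0172), Egr1 (1.61, 0.0171), Ier2 (1.40, 0.0202) and Fos (2.61, 0.0459). Fits of 2 libraries a side give a weak estimate of the spread between mice. The low-dose counterpart, also 2 against 2, had 1 member, Jun (0.94, 0.0498), with 3.44% of genes. The difference between labelled sexes in the response was tested as an interaction, in 9 comparisons of group and chamber. 0 members and 0 genes passed in edgeR, and DESeq2 called 0 members. At most 2 members had an unadjusted p under 0.05 in any of the 9 comparisons, against 1.03% to 4.32% of all genes. For the high dose in ventricles all 9 interaction terms were negative, that is, the log2 fold change was lower in libraries labelled female, with a smallest adjusted p of 0.956.

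Labelled sex was compared on its own, averaged over groups. In ventricles Nr4a1 and Atf3 were lower in libraries labelled female than in those labelled male, 2 of 9 members against 0.105% of 15263 genes in either direction and 0.0852% as lower. Nr4a1 stood at 4.79, 9.56 and 23.7 CPM (lowest, median, highest of 12) in female-labelled and at 9.74, 38.9 and 129 in male-labelled ventricles. Most male-labelled libraries lay above the highest female-labelled value, with overlap at the low end. The log2 difference, female minus male, was -1.54 ± 0.24 (adjusted p = 0.0144), and Nr4a1 ranked 2 among all genes by p. Atf3 stood at 2.07, 3.33 and 5.46 CPM against 3.38, 10.5 and 31.0 (-1.47 ± 0.26, 0.0305) and ranked 5. Again the groups overlapped only below 5.46 CPM. All 9 members were lower in female-labelled ventricles, with a median of -0.67 against -0.01 for all genes. Of them, 6 had an unadjusted p under 0.05, as did 11.8% of all genes. Fos was at -1.44 ± 0.30 (adjusted p = 0.0515) and Junb at -0.64 ± 0.15 (0.0964), and DESeq2 called both.

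Of the 12 male-labelled ventricle libraries, 4 carry high Xist and Myl4. Without them, Nr4a1 (-1.52, adjusted p = 0.0144) and Atf3 (-1.22, 0.00320) still passed, with 0.588% of genes called. Nr4a1 passed in 23 of 24 refits with 1 library left out (-1.49, adjusted p = 0.0501 without library 46), and Atf3 in 11 of 24 (up to 0.0974). Summed fibroblast markers had medians of 1068 and 1254 CPM in female- and male-labelled ventricles and ranges of 835 to 1601 and 892 to 2597; summed atrial markers had medians of 4.37 and 151 CPM. Their part in the difference was not tested. In the right and left atrium 0 members passed, with 0.00626% and 0.0937% of genes called, and DESeq2 called 0 members. There 0 and 2 members had an unadjusted p under 0.05, against 4.09% and 8.46% of all genes. Nr4a1 in the left atrium was at -1.11 ± 0.33 (adjusted p = 0.403).

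**Figure D4:**
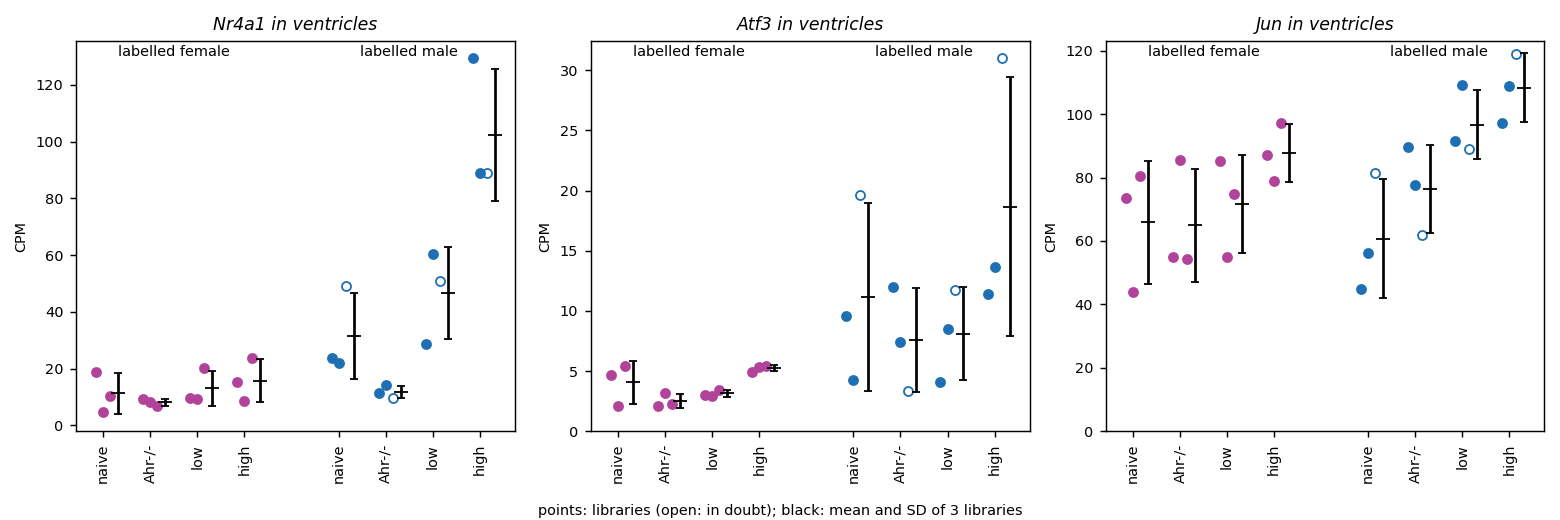
CPM of Nr4a1, Atf3 and Jun in ventricle libraries by group and labelled sex; points are libraries, open where the library goes against its label, and black bars are the mean and SD of 3. The 3 high-dose male-labelled libraries of Nr4a1 sit between 88.9 and 129 CPM, above all other ventricle libraries, and Atf3 is under 5.46 CPM in every female-labelled library.

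Among the surrounding genes in high-dose ventricles, averaged over labelled sex, 5 of 32 further immediate early genes were higher and 1 lower, against 12.7% of all genes called in either direction. Fosl2, an AP-1 subunit of the Fos family, was at 65.8 against 43.7 CPM (0.62, adjusted p = 0.0266), Jund, of the Jun family, at 0.59 (0.0292), the kinase Sik1 at 0.91 (0.0332) and the kinase Plk3 at 1.26 (0.0392). Klf6, chosen after its value was seen, was the one lower gene (-0.55, 0.0496). Of 16 upstream genes, the MAP kinase kinase Map2k2 (0.84, 0.00991) and the MAP kinase Mapk3 (0.75, 0.0148) were higher, and Mrtfb, a coactivator of serum response factor (-0.55, 0.0106), and Creb1 (-0.75, 0.0249) were lower. Of 10 feedback inhibitors none passed, and of 8 heat shock genes 1 did, Hspb1 (0.97, 0.0353). The medians of the 4 lists were 0.27, 0.04, -0.14 and 0.03, against 0.02 for all genes. Without the libraries that go against their labels, where 27.9% of genes were called, 8 of the 32 were higher and 2 lower, 3 of the 16 upstream genes higher and 3 lower, 1 of the feedback inhibitors higher and 2 lower, and Hspb1 (1.22, 0.00263) again the one heat shock gene. In low-dose ventricles, with 7.67% of genes called, the calls were Gadd45b (0.96, 0.0412), Map2k2 (0.77, 0.0212), Mrtfb (-0.44, 0.0389) and Mapk3 (0.64, 0.0389). In high-dose ventricles labelled female, where 23.7% of genes passed in either direction and 12.2% as higher, 4 of 31 further immediate early genes tested were higher and 1 lower, with Klf6 at -0.63 (0.00553) and Maff at 1.10 (0.0114), and 4 of 16 upstream genes were higher and 2 lower, with Map2k2 at 0.73 (0.00362) and Srf at 0.63 (0.00893). Between labelled sexes in ventricles 0 genes of these 4 lists passed in edgeR.

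Libraries numbered 49 to 72 differed from those numbered 1 to 48 in 5.23% of 16688 genes. Nr4a1 was the only member among them (0.67 ± 0.21, adjusted p = 0.0477), with medians of 43.3 and 22.6 CPM. It did not pass without the 16 libraries that go against their labels, and it passed in 32 of 72 refits with 1 library left out.

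The members moved together from library to library. After the mean of each group, chamber and labelled sex was taken away, Pearson's r between a member and the mean of the other 8 over 72 libraries was 0.757 for Fos, 0.748 for Egr1, 0.724 for Nr4a1, 0.619 for Jun, 0.606 for Junb, 0.600 for Fosb, 0.552 for Atf3, 0.477 for Dusp1 and 0.451 for Ier2. All members of a library share its depth and its tissue piece. Over 72 libraries, r with the library total ran from -0.381, for Dusp1, to 0.0674, for Nr4a1. In the left atrium alone it ran from -0.746, for Dusp1, to -0.218, for Junb. It ran from -0.0997 to 0.391 in the right atrium and from -0.437 to 0.405 in the ventricles. The part of depth was not tested. Without library 30, r with the mean of the other members ran from 0.383, for Dusp1, to 0.695, for Nr4a1. The closest pair was Jun with Nr4a1 (0.714, and 0.684 without library 30), and the loosest were Fosb with Ier2 (0.074, and -0.042) and Atf3 with Ier2 (0.110, and -0.0197). Fos went most closely with Egr1 (0.657) and Junb (0.637), and Atf3 with Nr4a1 (0.652) and Jun (0.616).

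**Figure D5:**
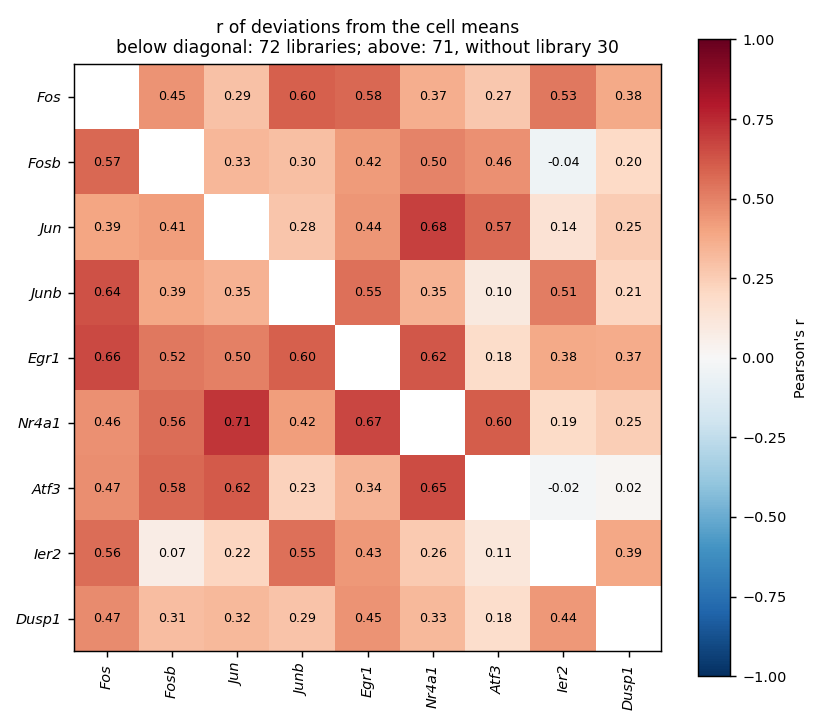
Pearson's r between members' deviations from the mean of their group, chamber and labelled sex, over 72 libraries below the diagonal and over the 71 without library 30 above it; red is positive and blue negative. Jun with Nr4a1 is the strongest cell at 0.71, and the cells of Ier2 with Fosb and Atf3 are the palest.

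Outside the members, the 15 genes whose deviations were most like the members' mean over 72 libraries, among 13907 genes with a mean of at least 1 CPM, were led by Slc25a25, a mitochondrial ATP-Mg/phosphate carrier (r = 0.746). Among them 5 were further immediate early genes, Egr3 (0.716), Btg2 (0.696), Nr4a2 (0.668), Egr2 (0.636) and Fosl2 (0.600). Another 3 belonged to the fixed heat shock list, Hspa1a (0.667), Hspa1b (0.646) and Dnajb1 (0.612), and a further chaperone, Hspa1l (0.582), is a neighbour and near copy of both Hspa1 genes, so that its reads may be shared with them. Others of the 15 were Apold1 (0.630), Cldn5, a tight junction protein of endothelium (0.594), Acta1, skeletal actin (0.587), and Cilp (0.584). With the same rule, 12 of these 15 were again among the closest 15 without library 30, 11 without the 16 libraries, 10 in the left atrium, 7 in the right atrium and 2 in the ventricles. The median r was 0.407 for the 32 further immediate early genes, 30 of them positive, 0.400 for the 8 heat shock genes, 0.0847 for the 10 feedback inhibitors and -0.0208 for the 16 upstream genes, against 0.00386 for all genes. Among marker lists it was 0.387 for red blood cells, 0.305 for adipocytes, 0.281 for smooth muscle, 0.104 for fibroblasts, 0.0646 for endothelium, 0.023 for macrophages and -0.0779 for cardiomyocytes.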

How the data were processed

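RNA from 72 heart pieces had been sequenced by the submitters as poly(A) libraries of single reads; per the labels and the study's methods, base calls were made with CASAVA 1.8, reads were aligned with TopHat to mm10, and reads on coding regions were counted per gene. The values deposited by the authors are raw counts per Entrez gene, with no normalization. Strand, multi-mapping and the annotation release are not given in the sources used here. The labels and the methods differ on age, gavage days and the RNA kit.

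From these counts, CPM was computed with the library total. Genes were kept by filterByExpr (minimum count 10, minimum total 15), scaled by TMM and tested with edgeR 4.0.16 (quasi-likelihood, robust) in R 4.3.3, with Benjamini-Hochberg adjustment over all genes tested and a call at 0.05. The study itself had used DESeq. Groups were compared with naïve 3 against 3, averaged over labelled sex in fits of 24 libraries per chamber, and chambers in a fit of 72 libraries, 46 comparisons in all. The fit of 72 treats libraries as independent although chambers share hearts, and p-values measure the spread between these libraries. The script was tested on simulated data. Alternatives were DESeq2 1.42.0, library-size scaling, no filter, a term for library series, subsets of libraries and leaving out each library. Likeness used log2 CPM with a prior count of 2. Figures used matplotlib 3.10.9.

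The members and gene lists were chosen with earlier results of these data known, and lists taken over from earlier work on these data are no independent support. Named were all 9 members in every comparison, from the other lists at most 4 called genes of smallest p per comparison, the 15 genes of highest likeness, of which 1 is not reported here, and Ahr. Gene names and coordinates came from RefSeq GRCm38.p6, in which 24155 of 24237 identifiers matched. Exon and coding lengths came from the GENCODE annotation. Intervals of counting error were not computed beyond the limit for a count of 0.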

Additional observations from a re-analysis of the deposited data

Results flagged for a closer look

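In each group of 6 libraries (both labelled sexes of a group in a chamber), the highest or lowest library was compared with its nearest neighbour by Dixon's test for an outlying value. Of 108 groups tested over the 9 members, 20 passed the critical value of 0.625. For independent values with a normal spread, chance gives about 1 in 20. These CPM values are skewed and the members of a library move together, so that this rate does not apply here. Values are CPM, followed by that of the nearest library.

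In the left atrium of low-dose mice, library 30 lay apart for Fos (157 against 8.48), Jun (199.6 against 103.7), Egr1 (142.6 against 30.3), Nr4a1 (167.6 against 77.2) and Ier2 (50.2 against 28.1). Libraries 14 of the right atrium and 46 of the ventricles stand at the same place in the numbering of their chambers. They held Egr1 at 65.0 and 57.0 CPM and Fos at 11.2 and 5.40 CPM. The labels do not say whether they share a heart with library 30. In high-dose mice, library 9 lay apart in the right atrium for Fos (41.5 against 6.85) and Egr1 (67.1 against 24.1), and library 25 in the left atrium for Fos (26.1 against 8.77) and Egr1 (47.0 against 22.8). Both are labelled male. In high-dose ventricles, library 65, one of those whose sex-linked genes go against the label, lay apart for Fosb (10.4 against 3.10) and Atf3 (31.0 against 13.6).

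In naïve mice, library 19 of the left atrium lay apart for Fosb (4.18 against 1.32) and Egr1 (32.7 against 15.4). Library 53 of the ventricles, whose sex-linked genes also go against the label, lay apart for Fos (9.14 against 2.88) and Fosb (2.34 against 0.827), and library 33 was low for Ier2 (7.67 against 14.6). In Ahr-/- mice, library 22 of the left atrium was high for Nr4a1 (28.8 against 14.3) and library 38 of the ventricles for Fosb (1.94 against 0.505). In low-dose mice, library 15 of the right atrium was low for Jun (65.2 against 92.7; it also held lung markers summing to 2064 CPM, the highest of the 72 libraries, and cardiomyocyte markers summing to 24140 CPM, the lowest, whose part was not tested) and library 46 of the ventricles high for Ier2 (29.8 against 18.7).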

How the results depend on the processing

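Among the 18 comparisons of a group with naïve mice by labelled sex, members were called 1 time in the reported fits, 0 times with library-size scaling or with one fit per chamber, 2 times with a term for library series, 5 times by DESeq2, 6 times in libraries 1 to 48 and 7 times without the 16 libraries (17 comparisons; high-dose right atrium labelled female, 1 against 1, could not be fitted). Averaged over sex, the 3 calls became 2 with no low-count filter and 2 with library-size scaling, 5 with DESeq2, 6 without the 16 libraries and 7 in libraries 1 to 48. Between labelled sexes the 2 calls became 4 with DESeq2. Between chambers the 8 calls became 0 in naïve libraries alone, a setting with 18 of 72 libraries, and 7 to 12 otherwise. The call between library series became 0 with no filter and 0 without the 16 libraries. Of the 15 genes of highest likeness, 7 were shared in the right atrium and 2 in the ventricles. Atf3 in right over left atrium, -0.67 in all libraries, was 0.63 in naïve libraries (adjusted p = 0.9999, edgeR). The cause of these changes was not tested.

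Leaving out 1 library at a time, member calls ranged from 0 to 2 against naïve by labelled sex, 0 (without 33, 36 or 66) to 4 averaged over sex, 0 (without 46) to 4 (without 42) between labelled sexes, 6 (without 30) to 12 (without 53) between chambers, and 0 to 1 between series. They stayed at 0 for the dose and interaction comparisons.

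Numbers of genes called moved as well: 3316 against naïve by labelled sex became 5650 with DESeq2, 238 with one fit per chamber, 6164 without the 16 libraries and 7360 in libraries 1 to 48. Averaged over sex, 3148 became 2420 with no low-count filter, 2217 with library-size scaling, and 5929, 9648 and 10127 with DESeq2, without the 16 and in libraries 1 to 48. Between labelled sexes, 32 became 342 with DESeq2. Between chambers, 8243 became 16169 without the 16, 14601 in libraries 1 to 48 and 1 in naïve libraries. Between series, 872 became 3843 with library-size scaling, 1481 with DESeq2 and 322 without the 16. Library-size scaling moved the all-gene median, on the log2 scale, to 0.228 in right atrium over ventricles, 0.179 in left atrium over ventricles and -0.148 between series. No paired analysis was run, because the labels do not say which libraries share a heart. Libraries 1 to 48 follow the same order of group and labelled sex in each chamber, and pairing by that order was not tried. Likeness without library 30, and the other gene lists without the 16 libraries, were chosen after seeing the data.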
